A study of Mus musculus with 50 samples.

Results

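The genes of the splicing machinery described here are the 77 rows, of 12819 in the authors' deposited table, whose names begin as those of small nuclear ribonucleoprotein (snRNP) proteins (Snrp, Snrnp, Sf3a, Sf3b, Prpf), U2 auxiliary factors (U2af), Luc7-like proteins (Luc7l), serine/arginine-rich (SR) proteins (Srsf) or heterogeneous nuclear ribonucleoproteins (Hnrnp, Hnrp). The rule uses gene names and no measured value, and it was set with earlier results of these data known. They fall into 6 genes of the U1 snRNP with its Luc7-like partners, 8 of the Sm ring, 13 of the U2 snRNP with SF3A, SF3B and U2AF, 16 of the U4/U6.U5 tri-snRNP and other Prpf factors, 3 of the U11/U12 particle, 11 SR and 20 hnRNP genes.

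PolyA-selected RNA came from V6.5 mouse embryonic stem cells (C57Bl/6-129). In clones 28 and 36 endogenous Cdk12 is deleted (Cdk12 -/-) and a Dox-inducible, Flag- and HA-tagged Cdk12 transgene (Cdk12 Tg+) replaces it. Both clones were kept in doxycycline (Dox) at 1 µg/mL and harvested in Dox, called 0 h here, or 24 or 48 h after its withdrawal, which depletes the kinase Cdk12. Each clone was sampled in duplicate, giving 4 libraries at each time. Parental cells of clone 21 (Cdk12 Fl/Fl; Cdk12 Tg-), with LoxP sites around Cdk12 exon 4 and no transgene, had 17 days of Dox before the same withdrawal, with 2 libraries at each time. The parental libraries served as the study's control for Dox itself. Since each knockout line is 1 clone, effects of a clone are seen only through 2 lines.

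The table holds the authors' comparisons of 0 h with each later time and no value for any library. No level, SD or replicate value thus accompanies any gene, and depth is unknown. Groups behind the posterior probabilities and changes are taken here to be clones 28 and 36 together. No source used here says whether clone entered that comparison, and duplicates of a clone are not independent lines. Changes are on the log2 scale, with 0 h as the base. Their direction follows the order of times in the column names and the sign of Cdk12, whose change was -0.61 at each time, not called at either. The authors' deposited table was read as 0 h over the later time, so the sign of each change quoted from it is reversed throughout. Were the direction the other way, each rise and fall here would be exchanged. A gene was called where its posterior probability of differential expression in the table was at least 0.95. All 8 stem cell markers were listed and none was called at 24 or 48 h. Sall4, though, had a blank posterior probability at 24 h with a change of 0.37 in the authors' deposited table. At 48 h the 8 markers ran from -0.46 for Zfp42 to 0.39 for Sox2 in the authors' deposited table. Of 7 fibroblast markers, a check for feeder cells, 3 were listed, and Col1a1 was called as risen at 48 h in the authors' deposited table, at 0.89 with an adjusted p of 0.0517 and the Dox effect column at yes. Fn1 and Thy1, the other fibroblast markers listed, were not called, and the authors' deposited table puts them at -0.46 and 0.29 at 48 h. With no levels, how much fibroblast RNA the libraries held was not tested.

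The spliceosome removes introns from pre-mRNA. The U1 snRNP recognises the 5′ splice site, U2AF and the U2 snRNP mark the 3′ splice site and branch point, and the tri-snRNP then joins to form the catalytic centre; a minor spliceosome with U11 and U12 serves a rare class of introns. SR proteins mostly promote the use of nearby splice sites and hnRNPs often repress it. U1 also keeps polyadenylation signals inside introns from being used, a process known as telescripting, and the series' title places Cdk12 in the suppression of intronic polyadenylation. Many SR and hnRNP genes hold poison exons, through which their proteins limit their own transcripts.

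Few splicing factor transcripts were called after Cdk12 was depleted, and at 24 h few of all genes were called either. In bulk RNA, fewer cells of a kind and less RNA per cell cannot be told apart. At 24 h none of 76 members with a posterior probability was called in the authors' deposited table, where 1.13% of all genes were called, 0.679% as fallen and 0.45% as risen. At 48 h 1 of 72 members was called, or 1.39%, against 7.69% of all genes. None of the 72 was called as fallen, against 3.97% of genes, and the 1 rise, that of Snrnp48, stands beside 3.72% of genes. The table has a second statistic, an adjusted p with neither its test nor its groups stated. By it no member passed 0.05 at 24 h, where 0.167% of genes did. Prpf31 alone passed it at 48 h, where 3.71% of genes did. These counts are descriptions of the list, which was not tested against other lists.

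Sizes of change were below those of all genes. The 2 sets were not matched for expression level, which the table does not give, and its part in this difference was not tested. The median size of the log2 change in the authors' deposited table was 0.10 over members and 0.16 over all genes at 24 h. At 48 h it was 0.15 over members and 0.23 over all genes. No member changed by 1.5-fold or more at 24 h, called or not, whereas 5.09% of all genes did. At 48 h 4 of 77 members had moved that far, Prpf31 downward and Srsf12, Prpf39 and Snrnp48 upward, where 15.1% of all genes had. The plot of cumulative sizes shows the members to the left of all genes at both times.

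**Figure D1:**
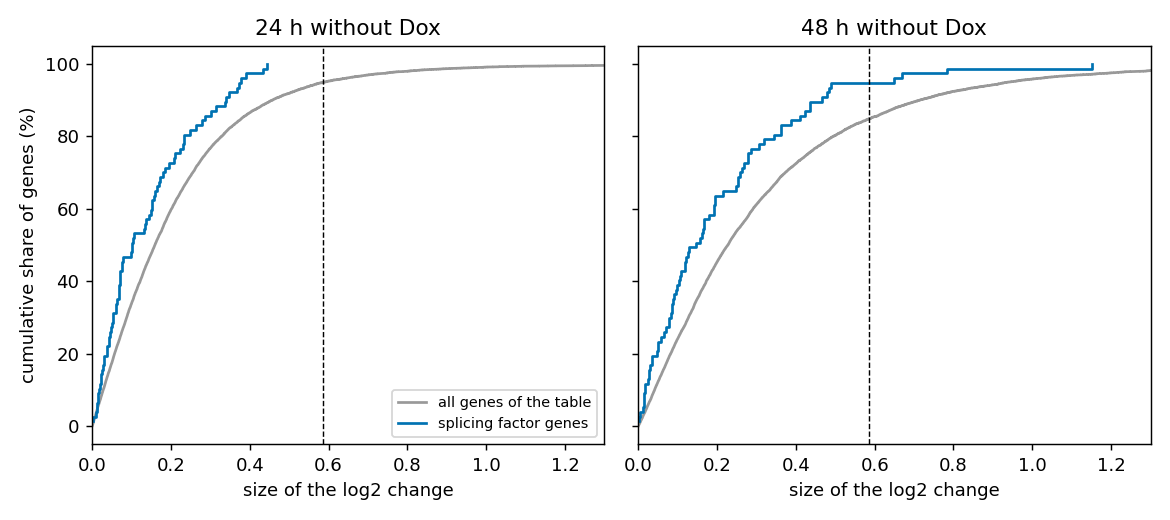
Cumulative share of genes (%) against the size of the log2 change at 24 h (left) and 48 h (right), for the 77 splicing factor genes (blue) and all genes of the authors' deposited table (grey), with a dashed line at 1.5-fold. The blue curve reaches 100% before the dashed line at 24 h, and 4 members lie beyond it at 48 h.

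A blank posterior probability needs care in reading these counts. Among all genes 156 at 24 h and 358 at 48 h had a change and no posterior probability in the authors' deposited table, and 154 and 356 of these changes were smaller than that of any called gene. The smallest called change was 0.52 at both times, or 1.43-fold, although genes with probabilities from 0.90 up to 0.95 included 37 of 53 at 24 h and 77 of 165 at 48 h with smaller changes. No source used here gives the rule that left cells blank. Blank members were Srsf4 at 24 h and Hnrnpul1, Prpf19, Prpf40b, Sf3a2 and Snrpn at 48 h. Counting blanks as called gives 1 member at 24 h, against 2.33% of all genes, and 6 of 77 members at 48 h, 4 higher and 2 lower, against 10.3% of all genes. With blanks counted, the members at 48 h thus lay closer to the share of all genes.

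**Figure D2:**
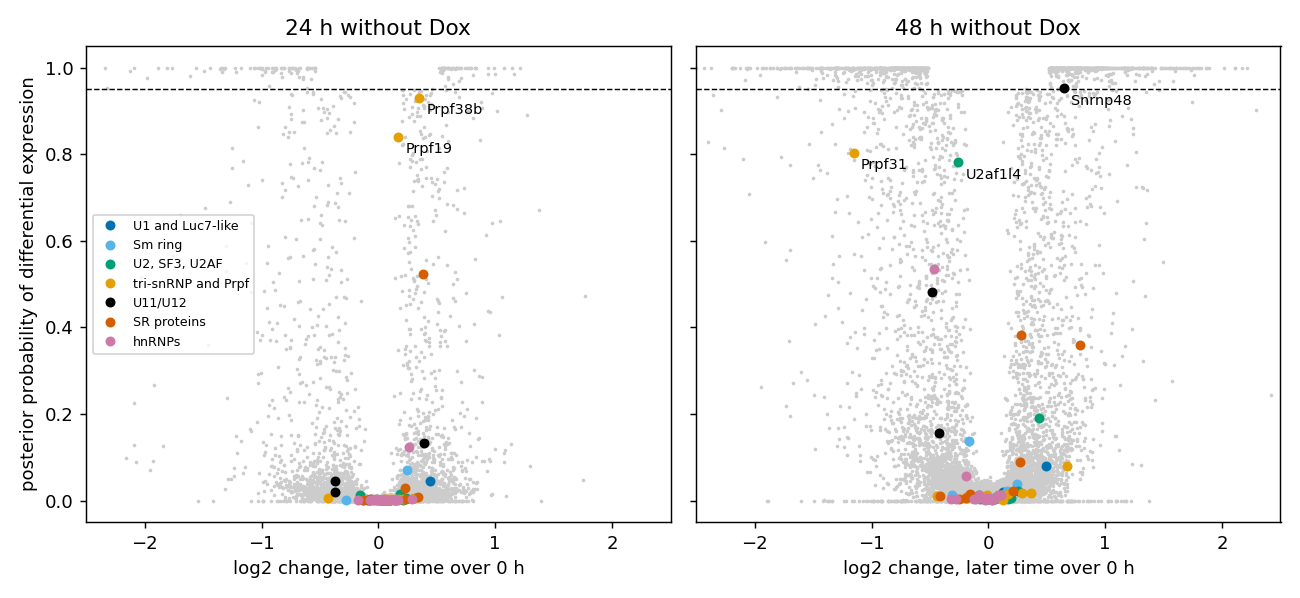
Posterior probability of differential expression against the log2 change (later time over 0 h) at 24 h (left) and 48 h (right) for members, coloured by group, and all other genes (grey), from the authors' deposited table. The dashed line marks 0.95, and Snrnp48 at 48 h is the 1 member above the line. Genes with changes beyond 2.5 in size, and genes and members with a blank posterior probability, are not drawn.

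The U11/U12 genes matched by the name rule were the smallest group and held the 1 called member. Snrnp48, a protein of this particle that takes part in recognising the 5′ splice site of minor introns, stood at 0.39 at 24 h in the authors' deposited table, with a posterior probability of 0.134. By 48 h it had risen by 0.65, or 1.57-fold, with a posterior probability of 0.952 in the authors' deposited table. That is just past the threshold, and its adjusted p by the second statistic was 0.190 in the same authors' deposited table. Snrnp48 carries the authors' Dox mark at 48 h, as 1 of 149 genes, and what that mark means is left undefined there. Snrnp25 and Snrnp35, the other U11/U12 genes that the name rule matched, had values on the other side of 0 at each time. In the authors' deposited table Snrnp25 was at -0.37 and then -0.42, with posterior probabilities of 0.0195 and 0.157. For Snrnp35 the authors' deposited table gives -0.37 and -0.48, with 0.0462 and 0.481, so neither was called. Annotated genes overlap Snrnp35, and no source used here says whether counting used strand. Of the 77 members 26 overlap an annotated gene, with U2af1l4, Prpf39, Hnrpdl, Snrpa, Luc7l and Srsf4 among them.

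Prpf31, which joins U4/U6 to U5 in the tri-snRNP and whose human gene is mutated in a form of retinitis pigmentosa, had the lowest value of all members. It stood at -0.43 at 24 h in the authors' deposited table, with a posterior probability of 0.00573. At 48 h its value was -1.15, or 2.22-fold lower, with a posterior probability of 0.803 and an adjusted p of 0.0453 by the second statistic in the authors' deposited table. It thus passed the second statistic and was not called by the first. Only 1.71% of all genes had a lower change at 48 h. An annotated gene overlaps Prpf31 too.

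Promoters of these 4 genes are shown because they include both members that passed either statistic. The others are the U11/U12 genes of the name rule that lay on the other side of 0 from Snrnp48. They are RefSeq sequences of GRCm38.p6, all on the plus strand, from 250 bases before to 50 after the annotated start. The Snrnp48 window is chr13:38204689-38204988, that of Snrnp25 chr11:32205165-32205464, that of Snrnp35 chr5:124482905-124483204 and that of Prpf31 chr7:3629735-3630034. Capitals mark exact matches on either strand to GGGCGG, known as the GC box, to the CCAAT motif, to the Ets site CCGGAAG or to the core promoter motif TATAAA, whose matches do not overlap each other in these windows.
Snrnp48: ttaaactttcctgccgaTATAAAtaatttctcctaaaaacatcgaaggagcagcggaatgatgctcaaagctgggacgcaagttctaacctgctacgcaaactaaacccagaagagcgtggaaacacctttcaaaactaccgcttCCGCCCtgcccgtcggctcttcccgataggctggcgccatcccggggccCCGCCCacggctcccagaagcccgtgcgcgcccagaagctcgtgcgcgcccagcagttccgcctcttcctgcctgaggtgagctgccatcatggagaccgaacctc
Snrnp25: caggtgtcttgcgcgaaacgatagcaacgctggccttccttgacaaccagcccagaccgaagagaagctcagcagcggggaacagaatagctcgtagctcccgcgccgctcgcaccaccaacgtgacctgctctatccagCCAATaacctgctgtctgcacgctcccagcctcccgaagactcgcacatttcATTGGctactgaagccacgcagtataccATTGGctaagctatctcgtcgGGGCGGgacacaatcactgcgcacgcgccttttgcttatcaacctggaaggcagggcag
Snrnp35: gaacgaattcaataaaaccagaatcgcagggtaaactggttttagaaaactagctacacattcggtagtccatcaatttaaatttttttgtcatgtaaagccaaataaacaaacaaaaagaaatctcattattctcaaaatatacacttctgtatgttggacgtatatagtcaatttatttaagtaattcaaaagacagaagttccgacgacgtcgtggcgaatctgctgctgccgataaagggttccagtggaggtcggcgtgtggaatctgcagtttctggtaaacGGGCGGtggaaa
Prpf31: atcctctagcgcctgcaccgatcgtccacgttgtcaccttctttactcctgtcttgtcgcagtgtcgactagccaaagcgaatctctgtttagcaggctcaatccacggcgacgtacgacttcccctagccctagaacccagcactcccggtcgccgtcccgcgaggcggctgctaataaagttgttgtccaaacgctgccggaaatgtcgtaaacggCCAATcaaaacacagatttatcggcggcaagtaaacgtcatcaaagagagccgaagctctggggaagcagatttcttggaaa

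Snrnp48 showed 2 GC boxes and 1 TATAAA, Snrnp25 held 3 CCAAT and 1 GC box, Snrnp35 had 1 GC box and Prpf31 1 CCAAT. The TATAAA of Snrnp48 lay near the upstream end of its window, far from the annotated start. The GC box of Snrnp35 lay after the annotated start, and all other matches in these windows lay before it. Whether any of these matches acts in its promoter was not tested. No motif was in all 4 windows. Of the 77 members 66 matched the promoter table, with 87 windows, and these were rich in CG dinucleotides, with a median of 25 per window against 21 for the genes of the RNA table and 7 for all promoters. CCGGAAG was in 29.9% of member windows, 17.0% of windows of genes in the RNA table and 8.86% of all windows. For GGGCGG the shares were 65.5%, 64.1% and 35.7%, for CCAAT 46.0%, 37.8% and 37.4%, and for TATAAA 9.20%, 6.84% and 13.6%. Some genes have several windows, and a match is a run of letters and not a bound site.

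The U1 group had no called member at either time. Its median was 0.08 at 24 h, with all 6 members above 0, and 0.13 at 48 h, with 4 of 6 above 0, against 0.01 over all genes at both times. Snrnp70, the U1-70K protein that contacts the first stem-loop of U1 RNA, was at 0.07 and then 0.00 in the authors' deposited table. Snrpa, which encodes U1-A and binds another stem-loop, was at 0.10 and 0.13 in the authors' deposited table. Snrpc, the U1-C protein at the 5′ splice site, had 0.10 and 0.13 in the authors' deposited table. The Luc7-like genes, relatives of a yeast U1 protein, were less alike. Luc7l3 had the highest change of the group, 0.44 and 0.49 in the authors' deposited table, with posterior probabilities of 0.0445 and 0.0808. The authors' deposited table puts Luc7l2 at 0.05 and 0.18 and Luc7l at 0.06 and -0.09. Without Luc7l2 and Luc7l3 the group's median at 48 h was 0.06.

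Genes of the Sm ring, the heptamer that U1, U2, U4 and U5 share, had medians of 0.03 and 0.04, and none of them was called. They ranged at 48 h from Snrpe at -0.31 to Snrpn at 0.34 in the authors' deposited table. Snrpn encodes SmN, a relative of SmB made by an imprinted gene, and its row overlaps other annotated genes. For its relative Snrpb the authors' deposited table has -0.07 and 0.02, and reads of so similar a pair may be divided between them.

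The U2 group, with the SF3A and SF3B complexes that hold the branch point and U2AF that binds the polypyrimidine tract, had a median of 0.08 at 24 h, with 10 of 13 members above 0. At 48 h the median was -0.00 and 6 members were above 0. For Sf3b1, the large SF3B subunit, the authors' deposited table gives 0.08 and 0.20. The highest value at 48 h was that of Snrpa1, the U2-A′ protein, at 0.44 with a posterior probability of 0.190 in the authors' deposited table. The lowest was that of Sf3a2, at -0.48 with a blank posterior probability and a second adjusted p of 0.346 in the authors' deposited table. U2af1l4, a relative of U2af1, had a posterior probability of 0.781 at 48 h with a change of -0.26 in the authors' deposited table.

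Among the 16 tri-snRNP and Prpf genes 13 were above 0 at 24 h and 9 at 48 h, with medians of 0.13 and 0.10. By the authors' deposited table Prpf8, its central scaffold, was at 0.16 and 0.12, and Snrnp200, the helicase that unwinds U4 from U6, at 0.15 and 0.12. Prpf39, a U1-associated factor by its yeast relative, was the highest at 48 h, at 0.67 with a posterior probability of 0.0798 in the authors' deposited table. Prpf38b had the highest posterior probability of all members at 24 h, 0.931 for a change of 0.35 in the authors' deposited table, and at 48 h stood at -0.05 with 0.00876. Prpf19, the ubiquitin ligase of the Prp19 complex, had a change of 0.17 with a posterior probability of 0.840 at 24 h in the authors' deposited table. Its change at 48 h was 0.36 with a blank cell. Because of Prpf31 the mean of this group at 48 h was -0.00.

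SR genes spread on both sides of 0 with none called. Their median was 0.14 at 24 h, with 7 of 11 above 0, and -0.09 at 48 h, with 4 of 11 above 0, while their mean at 48 h was 0.03. Srsf12, an SR protein described as a splicing repressor, was the highest at 48 h, at 0.34 and then 0.78 in the authors' deposited table, with posterior probabilities of 0.00716 and 0.360. Srsf5 stood at 0.38 at 24 h with a posterior probability of 0.523 in the authors' deposited table, and at 0.27 with 0.0893 at 48 h. Srsf4 was at 0.34 with a blank cell at 24 h and at 0.28 with 0.383 at 48 h in the authors' deposited table. Srsf7 had the lowest value at 48 h, -0.41 with a posterior probability of 0.0103 in the authors' deposited table. Srsf3, an export adaptor as well as a splicing factor, was at -0.07 and -0.25, and Srsf1, the founding SR protein, at -0.13 and -0.19 in the authors' deposited table.

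The hnRNP genes had the smallest changes of the 7 groups at 48 h, with a median size of 0.08, and medians of 0.03 at 24 h and -0.02 at 48 h. Their values were above 0 for 14 of 20 at 24 h and for 7 of 20 at 48 h, and 7 members passed from above to below 0. By the authors' deposited table Hnrnpl, Hnrnpc and Hnrnpk lay within 0.05 of 0 at each time. Hnrpdl, a relative of Hnrnpd now named Hnrnpdl, was the lowest, at -0.04 and then -0.47 with a posterior probability of 0.536 at 48 h in the authors' deposited table. The authors' deposited table has Hnrnpul1 as the highest, 0.26 at each time with a blank cell at 48 h. Hnrnpa1, which has processed copies elsewhere in the genome, had changes of -0.17 and -0.28 by the authors' deposited table.

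**Figure D3:**
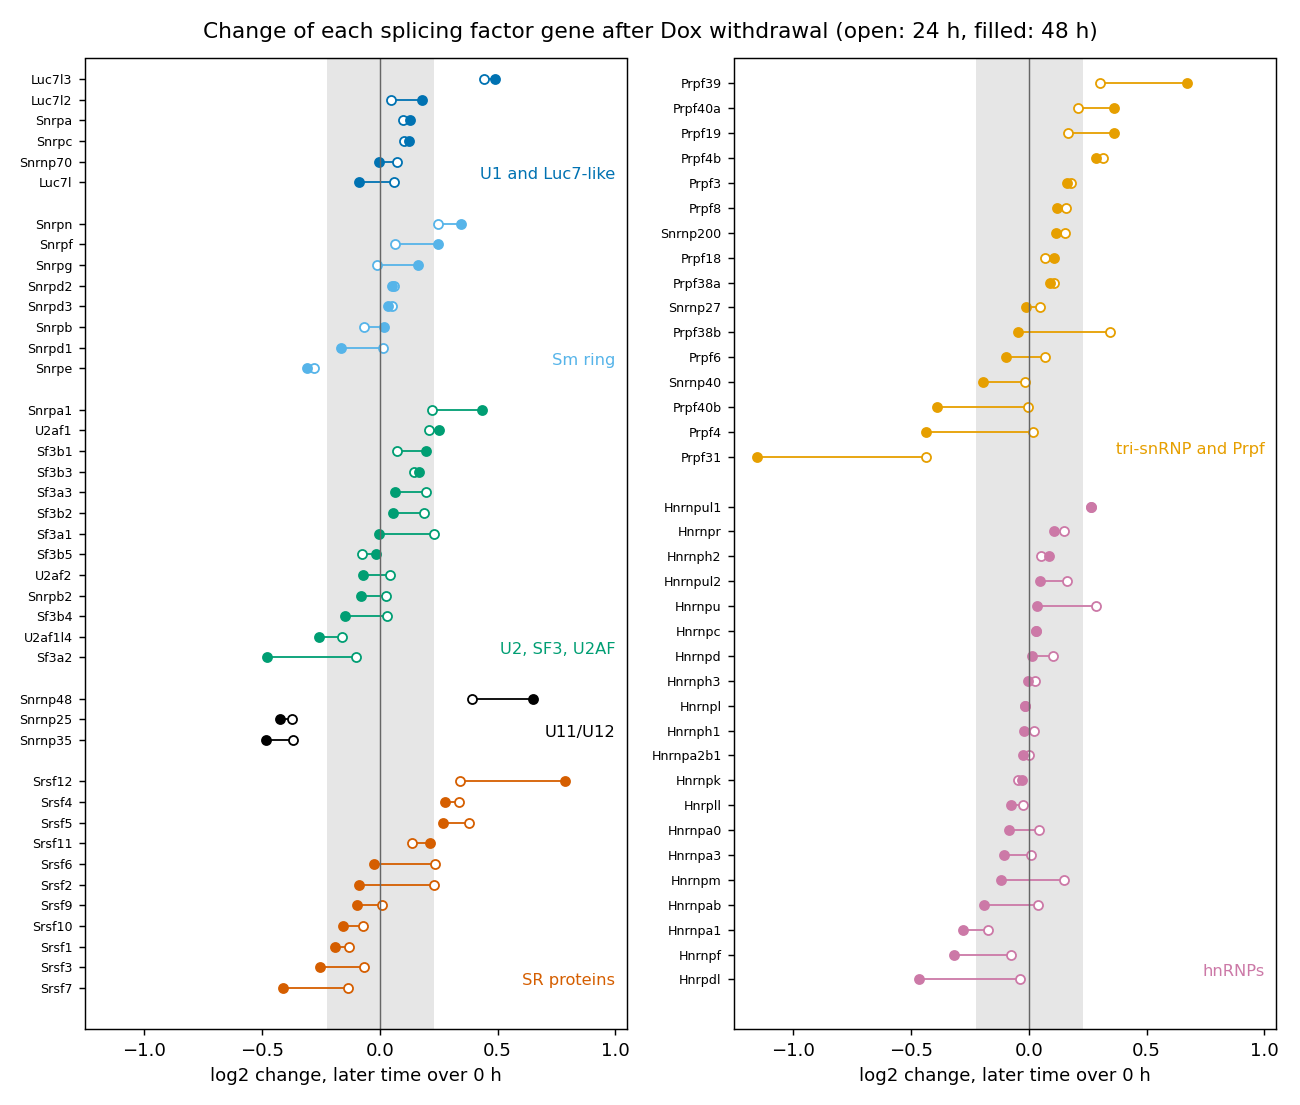
Log2 change of each of the 77 members at 24 h (open circles) and 48 h (filled circles) over 0 h in the authors' deposited table, joined by a line and grouped by role, with no error because no library values were used. The grey band holds the middle of all genes at 48 h (lower to upper quartile, -0.22 to 0.23), and Prpf31 at -1.15 and Srsf12 at 0.78 are the extremes.

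Both times were set against the same 0 h libraries, so their values are not independent and no correlation between them is given. At 24 h 56 of 77 members were above 0, or 72.7% against 52.2% of all genes, and at 48 h 37 of 77 were, or 48.1% against 51.4%. Above 0 at both times were 35 members and below 0 at both 19. A further 21 were above 0 at 24 h and below it at 48 h, and 2 did the opposite. The members' median was 0.06 at 24 h and -0.00 at 48 h.

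Over all members together, longer splicing factor genes tended to have higher values, though not in every group. Across the 77 members the Spearman correlation of genomic length with the log2 change was 0.44 at 24 h and 0.43 at 48 h, against 0.08 and 0.09 over 12703 and 12651 genes of the table with a length. These are descriptions across genes that share the same libraries, and genes are not replicates. The members' median length was 14.3 kb. Of the 39 members at or above it 35 were above 0 at 24 h and 28 at 48 h, with medians of 0.15 and 0.11. Of the 38 shorter members 21 and 9 were above 0, with medians of 0.01 and -0.08. Among all genes with at least that length 4536 of 8250 were above 0 at 24 h and 4510 of 8218 at 48 h, and among shorter ones 2086 of 4453 and 1989 of 4433. Without Snrpn, whose annotated span is by far the longest, the members' correlations were 0.42 at both times. Without the U2 group they were 0.38 at both times. By group the correlation at 48 h was 0.58 for U2, 0.38 for tri-snRNP and Prpf and 0.34 for hnRNP genes. It was 0.23 for SR, 0.21 for Sm and 0.09 for U1 genes. At 24 h the correlation was 0.63 for U2, 0.34 for hnRNP, 0.29 for Sm and 0.17 for tri-snRNP and Prpf genes. Those of the SR and U1 genes at 24 h were negative, at -0.05 and -0.60. Expression level, which the table does not give, was not tested.

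**Figure D4:**
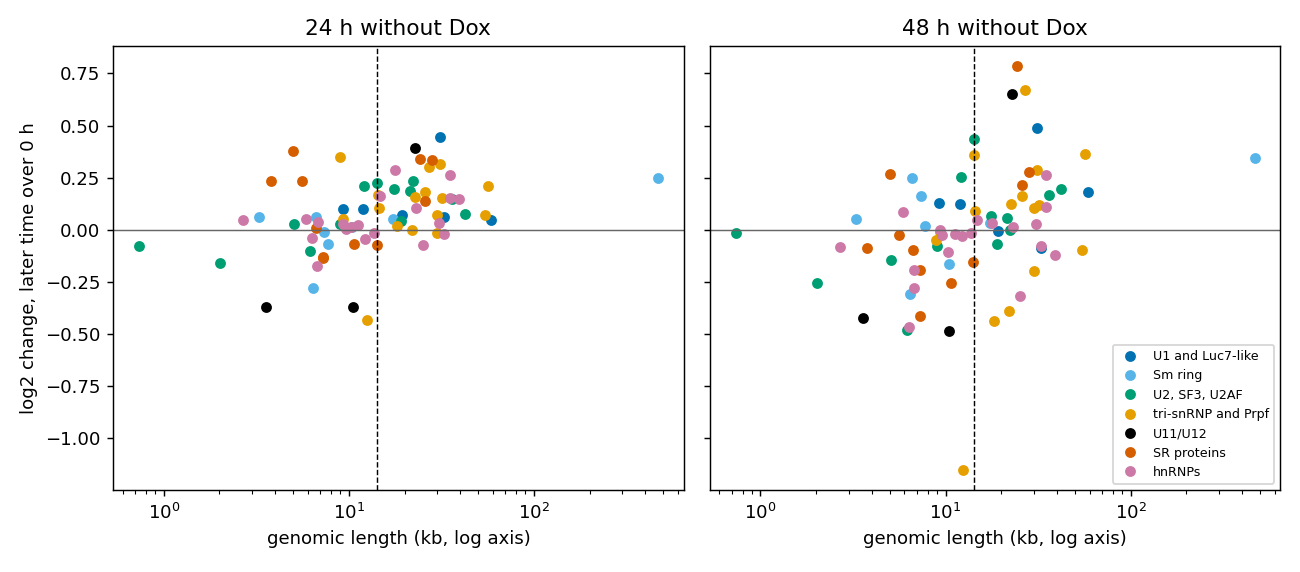
Log2 change over 0 h at 24 h (left) and 48 h (right) against the genomic length (kb, log axis) of each of the 77 members, coloured by group, with the median length of 14.3 kb dashed. At 48 h 28 of 39 longer members and 9 of 38 shorter ones lie above 0.

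Other genes of the splicing pathway were counted from 4 lists with 135 listed in the table. None was called at 24 h, and at 48 h 1 was called as risen and 2 as fallen, of 132 with a posterior probability, or 2.27%. Over all genes 1.13% were called at 24 h and 7.69% at 48 h, and 52.2% and 51.4% of values were above 0. The counts of calls leave out blank posterior probabilities, those of Ik, Scaf4 and Srrm2 at 24 h and of Dhx38, Ppie and Rbm4 at 48 h. Called or blank were 2.33% of all genes at 24 h and 10.3% at 48 h. These shares count blanks and so are not like the 2.27% of the lists, which leaves blanks out. Rbm17, a factor of early 3′ splice site recognition, rose by 0.67 with a posterior probability of 1.000 in the authors' deposited table. Cd2bp2, a component of the U5 particle, fell by 0.70 with a posterior probability of 1.00 in the authors' deposited table. Taf15, an RNA-binding protein, fell by 0.53 with a posterior probability of 0.999 in the authors' deposited table. None of the 3 passed the second statistic, at adjusted p values of 0.0967, 0.0900 and 0.316 in the authors' deposited table. Prp19 complex and spliceosomal helicase genes had 29 of 36 values above 0 at 24 h and 26 at 48 h, with medians of 0.10 and 0.09. LSm and snRNP assembly genes had 15 and then 12 of 31 above 0, with medians of -0.03 and -0.06. SR-related, exon junction and SR kinase genes had 22 and then 17 of 31 above 0, with medians of 0.14 and 0.02. For other regulators of splice site choice 22 of 37 were above 0 at both times, with medians of 0.05 and 0.13.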

How the data were processed

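Per the file headers, the authors' deposited table has for 24 h and for 48 h a posterior probability that a gene differs from 0 h, the log2 of the fold change, an adjusted p-value and a Dox effect column of yes or no. The authors made these log2 values and adjusted p-values from groups of libraries. The table's name points to EBSeq, a Bayesian test, for the posterior probabilities and fold changes. Its settings and normalization, and the test behind the adjusted p-values, are not given in the sources used here. Aligners and other tools in the submitters' processing notes are STAR, BWA 0.7.12-r1039, bedtools 2.20.1, DESeq 1.22.1, RSEM and SAMtools 1.3, and the builds mm9 and mm10, without a role for any. The 32 ChIP and control libraries are not analysed here.

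Deposited log2 changes were multiplied by -1. Calls needed a posterior probability of at least 0.95, over the whole table. Members, lists and rules were chosen with earlier results of these data known. Text names members that were called, passed the second statistic or belong to U1, the lowest and highest of each group at 48 h, and called genes of the 4 lists. Snrnp25, Snrpb, Sf3b1, U2af1l4, Prpf8, Prpf19, Prpf38b, Prpf40b, Snrnp200, Srsf1, Srsf3, Srsf4, Srsf5, Hnrnpa1, Hnrnpc, Hnrnpd, Hnrnpk and Hnrnpl were added after their values were seen, as were the length and promoter measures. Matching to RefSeq GRCm38.p6 used the symbol, or a synonym held by 1 gene only, and found 77 members and 12706 rows. Counting was tested on simulated data. Python 3.11.15, pandas 2.3.3 and scipy 1.17.1 were used.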

Additional observations from a re-analysis of the deposited data

How the results depend on the processing

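No paired analysis was possible because the table holds no values per library, and for the same reason no replicate could be left out. Of 82 values under alternatives, 66 stayed within 1.5 times for a count or 0.05 on the log2 scale (for a correlation, 0.05) and 16 did not. Some of the 66 were fixed beforehand, so their number does not measure robustness. A count of 0 cannot change under a stricter probability, under a fold minimum or without genes with the Dox mark. Medians cannot move without genes with the Dox mark where a group has none, nor over members with a posterior probability where none is blank. The count of risen members at 48 h, 1, became 0 at a posterior probability of at least 0.99, with a 2-fold minimum, by the second statistic and without genes with the Dox mark. The count of fallen members at 48 h, 0, became 1 by the second statistic. At 24 h the count of risen members, 0, became 1 at a posterior probability of at least 0.90. Counting blank posterior probabilities as called, an alternative added after the data were seen, gave 1 risen member at 24 h, and 4 risen and 2 fallen at 48 h. As means, the values were 0.14 for U1 at 24 h, and 0.029 for SR and -0.00296 for the tri-snRNP and Prpf group at 48 h. The SR median at 24 h was 0.074 over members with a posterior probability, and the U1 median at 48 h was 0.0606 over Snrnp70, Snrpa, Snrpc and Luc7l. Without the U2 group, also added later, the correlations with length were 0.38 at both times. Adding Sf3b6, listed under an older name, changed no count of calls.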

Other observations

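Prpf31 starts 56 bases from the annotated start of Tfpt on the other side, and the Prpf31 window printed in the report covers both starts. In the authors' deposited table Tfpt stood at 0.12 and then 0.02, with posterior probabilities of 0.00604 and 0.00580, while Prpf31 stood at -0.43 and -1.15. Cnot3, the next annotated protein-coding gene downstream, was at 0.19 and -0.09 in the authors' deposited table. These neighbours were looked up after the value of Prpf31 was seen, and the difference between the genes was not tested.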
